A study of Homo sapiens with 4 samples.

Results

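The transfer RNA (tRNA) genes of the nuclear genome were examined for IRF3 binding in MM1.S cells, an established human multiple myeloma cell line used as a model of malignant plasma cells. Members were all nuclear genes that RefSeq lists as tRNA on the chromosome sequences of GRCh38. No measured value entered this rule, though it was chosen with earlier results of these data known. There were 429 members among 58961 genes of all types. A further 14 nuclear tRNA genes lie on unplaced or alternative scaffolds and were not used, and the 22 mitochondrial tRNA genes are not members. The cells were untreated and grown in RPMI medium with serum. IRF3 chromatin immunoprecipitation with sequencing (ChIP-seq) was done in 2 replicates, each with an input library of the same number. Whether the replicates came from different cultures is not stated, and the spread between them may be purely technical.

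tRNA genes are transcribed by RNA polymerase III. Its promoter lies inside the gene, as an A box and a B box that the factor TFIIIC reads before it places TFIIIB just upstream. The genome holds many near-identical copies of most tRNAs, several of them packed into clusters, and the biggest of those lies on the short arm of chromosome 6 among histone genes and next to the major histocompatibility complex. IRF3 is known instead for RNA polymerase II targets, the interferon and antiviral genes downstream of nucleic-acid sensors. The genes are named by amino acid in 1 letter (TRA for alanine, TRX for initiator methionine, TRU for selenocysteine), anticodon, sequence family and copy.

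The letters of 14 tRNA genes could be read, because the RefSeq promoter windows of neighbouring genes (GRCh38.p14) span them whole. All 14 held the B box core GTTCNANNC on 1 strand, and 10 held the stricter GTTCGANNC. The genes below are written 5′ to 3′ on that strand with the B box core in capitals. They were chosen to set genes with IRF3 summits beside genes without, after their values were seen.
TRR-ACG2-1: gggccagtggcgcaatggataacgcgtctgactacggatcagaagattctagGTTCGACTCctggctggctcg
TRF-GAA1-5: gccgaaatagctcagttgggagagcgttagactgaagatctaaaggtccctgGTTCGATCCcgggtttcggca
TRT-TGT6-1: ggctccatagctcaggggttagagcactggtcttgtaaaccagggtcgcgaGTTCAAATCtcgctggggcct
TRA-AGC2-2: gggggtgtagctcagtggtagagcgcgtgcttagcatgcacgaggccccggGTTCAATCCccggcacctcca
TRI-TAT2-2: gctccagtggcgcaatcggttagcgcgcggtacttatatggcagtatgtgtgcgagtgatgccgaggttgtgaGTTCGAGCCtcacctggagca
TRH-GTG1-9: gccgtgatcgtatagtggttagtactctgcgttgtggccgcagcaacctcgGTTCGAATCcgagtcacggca
TRH-GTG1-3: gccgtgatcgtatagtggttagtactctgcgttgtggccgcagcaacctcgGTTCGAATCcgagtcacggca

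The arginine gene TRR-ACG2-1 (chr3:45688999-45689071, minus strand), the phenylalanine gene TRF-GAA1-5 (chr13:94549650-94549722, minus strand), the threonine gene TRT-TGT6-1 (chr5:181191687-181191758, minus strand) and the alanine gene TRA-AGC2-2 (chr6:28863685-28863756, minus strand) had an IRF3 summit nearby in both replicates. The isoleucine gene TRI-TAT2-2 (chr6:27020346-27020439, plus strand) had none. The histidine genes TRH-GTG1-9 (chr15:45201151-45201222, plus strand) and TRH-GTG1-3 (chr1:148281365-148281436, plus strand) have the same 72 letters. The first had a summit in replicate 2 only, 450 bp away and with a fold enrichment of 10.2, and the second had none in either replicate. The B box core was thus present in genes with and without a summit.

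Each replicate's peak list was used as the authors called it, with 41880 peaks in replicate 1 and 41666 in replicate 2. Peak calling rested on 38568845 and 46474586 ChIP tags and on 58025919 and 60348415 input tags. A tRNA gene was called occupied when each replicate had a peak whose summit, its highest point, lay within 500 bp of the gene. Strength is given as the authors' fold enrichment of the ChIP pileup over the local background at the summit. Its median over all peaks was 3.90 in replicate 1 and 4.30 in replicate 2. The tags were 74 bp long and the median tRNA gene spans 73 bp, so tags inside near-identical copies may be placed at the wrong copy, and the labels and headers do not state how tags with several possible places were treated.

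IRF3 summits were present at tRNA genes of each isotype and of most clusters, at a share close to that of protein-coding gene ends. Of the 429 genes, 112 were occupied, which is 26.1% (exact Clopper-Pearson 95% interval 22.0 to 30.5, for counting error only). By the same rule 23.0% of 39732 protein-coding gene ends were occupied. These ends are both ends of each gene, and 44.9% of the 19866 protein-coding genes were occupied at either end. Replicate 1 alone had a summit at 138 tRNA genes and replicate 2 alone at 147, which is 32.2% and 34.3%, beside 24.2% and 25.9% of the coding gene ends. A summit was present in replicate 1 only at 26 genes and in replicate 2 only at 35, and 256 genes had none in either. Genes are not replicates and the 2 ChIP libraries belong to 1 condition, so no significance test over samples was possible for any count here.

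Summits were concentrated at the tRNA genes relative to the DNA around them. When the spans of the tRNA genes were moved by 5, 10, 20 and 50 kb to each side, 49 of 3011 moved spans met the rule, which is 1.63% (interval 1.21 to 2.15). Over 10 kb from any protein-coding gene end, the moved spans met it in 1.04% of 1833 cases and the tRNA genes themselves in 17.9% of 279. Those 2 intervals, 0.625 to 1.61 and 13.6 to 22.9, did not overlap. They count spans and genes as independent and may be too narrow. Each gene gave several moved spans, and the 50 occupied genes rest on 44 pairs of peaks. In bins of 250 bp around the gene middle, 13.7% and 13.3% of the genes outside the chromosome 6 cluster had a replicate 1 summit in the bins to either side of the middle. Beyond 1 kb the median bin held 1.05% of these genes in each replicate. Other short RNA genes gave 24.8% for 149 small nuclear RNA genes, 5.33% for 1913 microRNA genes, 2.598% for 1193 small nucleolar RNA genes and 0 of 29 ribosomal RNA genes, which allows a share of up to 10.3%.

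**Figure D1:**
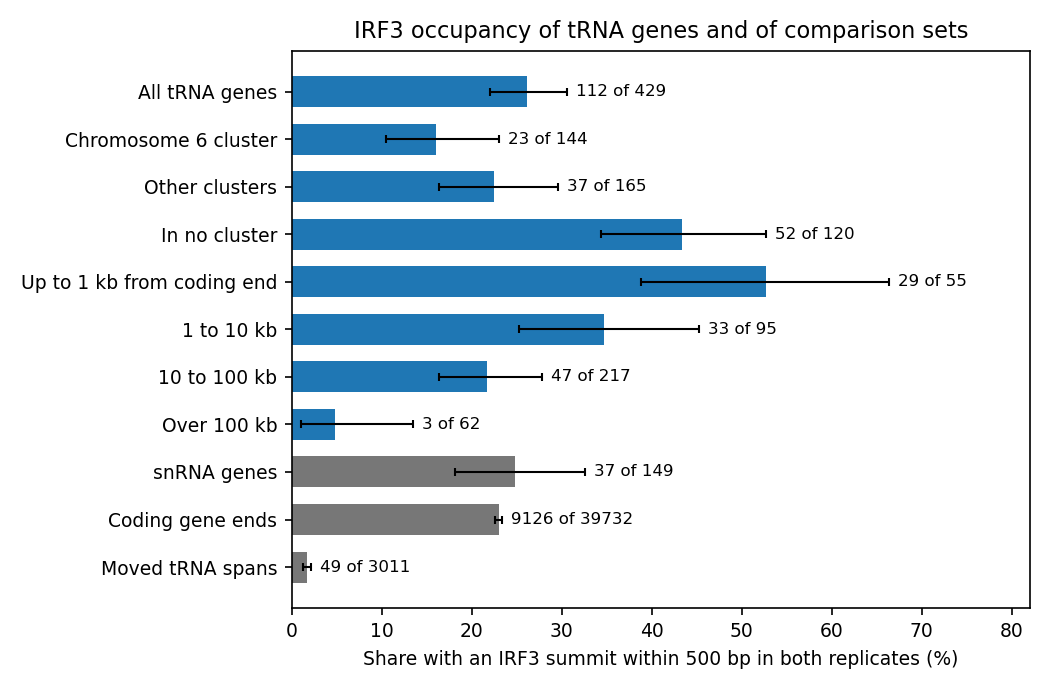
Share of genes, coding gene ends or moved tRNA spans (horizontal axis, %) with an IRF3 summit within 500 bp in both replicates. Bars give the share, black lines the exact 95% interval, and the counts stand to the right. The share falls from 52.7% of tRNA genes up to 1 kb from a protein-coding gene end to 4.84% of those over 100 kb away, and the moved spans sit at 1.63%.

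**Figure D2:**
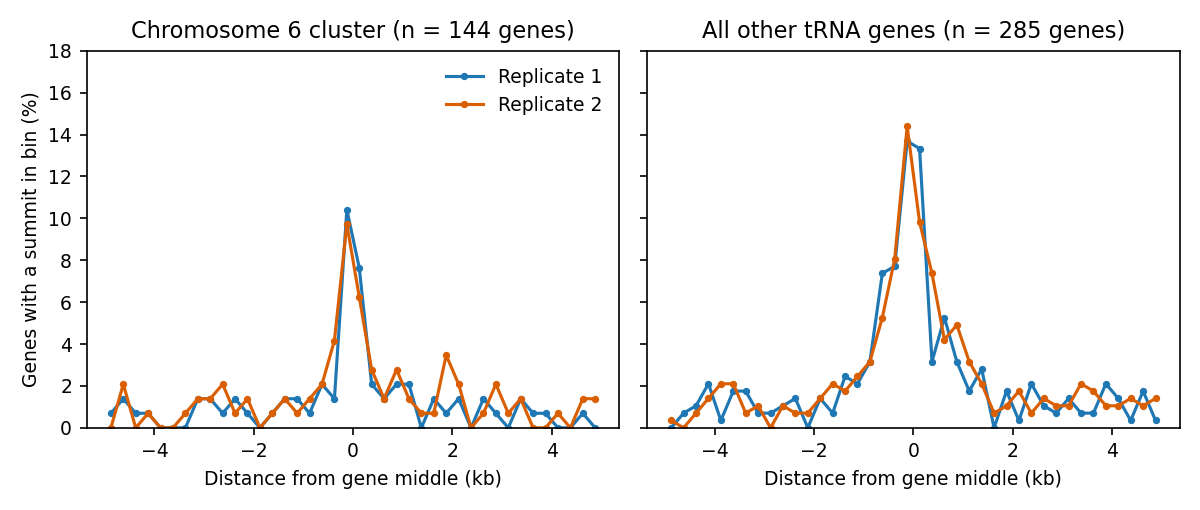
Percent of tRNA genes (vertical axis) with an IRF3 summit in each 250 bp bin, by distance from the gene middle in kb (horizontal axis), with 1 line per replicate. Left panel, the 144 genes of the chromosome 6 cluster. Right panel, the 285 other genes. Both panels peak at the gene, with 10.4% and 13.7% of genes in the highest replicate 1 bin, and stay at or below 3.47% beyond 1 kb.

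Peaks at tRNA genes stood above the list median in raw pileup in both replicates, but in fold enrichment only in replicate 2. The 112 genes were served by 102 distinct pairs of peaks, since 10 pairs lay near 2 genes each. The 2 replicates' peaks overlapped at 109 of the 112 genes, and the median gap between the 2 summits of a pair was 77 bp. Over the 102 pairs the median fold enrichment was 3.04 in replicate 1 and 4.50 in replicate 2. Of these, 31 and 54 pairs stood above the median of their list. The median pileup, the number of stacked fragments at the summit, was 73.5 and 54, above the medians of 61 and 45 over all peaks. The local background implied by these 2 values, (pileup + 1) divided by fold enrichment, was correspondingly higher, at 23.6 and 13.0 against 17.0 and 11.0 over all peaks. At most of the occupied genes, 94 of 112, fold enrichment was higher in replicate 2. Across the 102 pairs the 2 replicates' fold enrichments had a Spearman rho of 0.65 and a Pearson r of 0.73 on the log2 scale, as a description of pairs that share the same loci and local background.

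Peaks of higher fold enrichment had their summits farther from the tRNA gene. Summits were a median of 63 bp from the gene in replicate 1 and 179.5 bp in replicate 2, and 22 and 11 of the 102 lay inside the gene. In replicate 1, the 58 summits up to 100 bp from the gene had a median fold enrichment of 2.76 and the 44 farther out had 4.21. In replicate 2, the 30 near summits had 3.09 and the 72 farther out 5.54. The distance to the gene and the fold enrichment therefore moved together in both replicates. Both were also higher near coding genes. Pairs up to 1 kb from a coding end had median distances of 142 and 229 bp and fold enrichments of 4.20 and 6.26. Pairs over 10 kb away had 55 and 159.5 bp, and 2.89 and 4.18. A fold enrichment of at least 5 in both replicates was met by 14 tRNA genes, which is 3.26%, against 12.9% of coding gene ends.

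**Figure D3:**
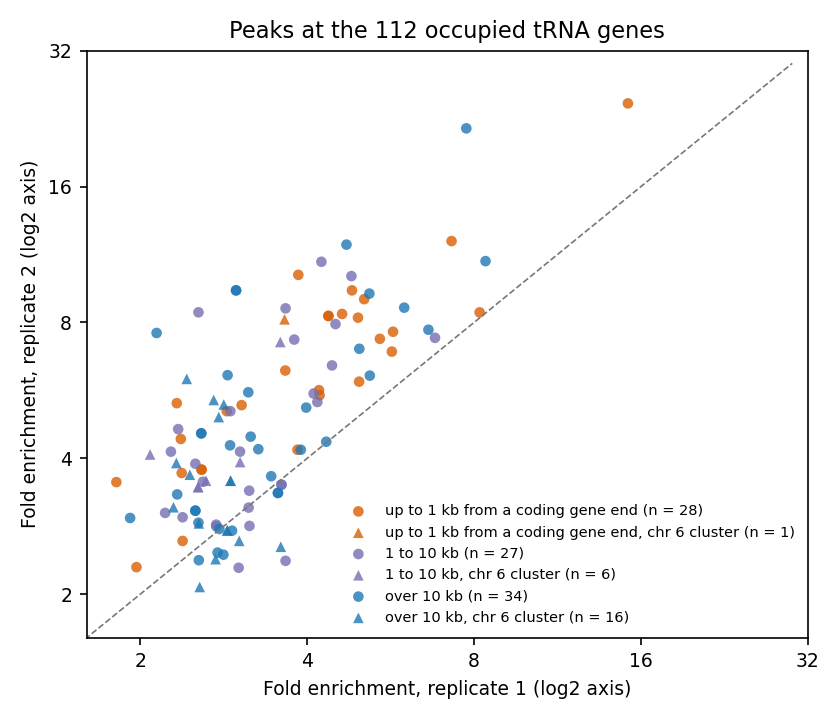
Fold enrichment of the strongest peak near each of the 112 occupied tRNA genes in replicate 1 (horizontal) and replicate 2 (vertical), both on log2 axes. Colour gives the distance to the nearest protein-coding gene end and triangles mark the chromosome 6 cluster. Most points lie above the dashed line of equal values, and TRR-TCG1-1, at 15.2 and 24.5, stands at the top right.

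The highest-ranked genes were scattered over the genome and none of the first 15 lay in the chromosome 6 cluster. The order followed the poorer of a gene's fold enrichment ranks in the 2 lists, with 1 gene kept per peak pair. Of these 15, 7 lay up to 1 kb from a protein-coding gene end and 7 over 10 kb away. The first was the arginine gene TRR-TCG1-1 (chr15:89335073-89335145), with a fold enrichment of 15.2 in replicate 1 and 24.5 in replicate 2. It lies 249 bp from POLG, which encodes the mitochondrial DNA polymerase, and its summits were 59 and 64 bp from the POLG end but 308 and 313 bp from the tRNA gene.

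Several strong sites had no coding gene close by. The isoleucine gene TRI-TAT2-1 (chr2:42810536-42810628) had fold enrichments of 7.75 and 21.5 and lies 17953 bp from HAAO, the nearest coding gene. The threonine gene TRT-CGT4-1 (chr17:31550074-31550145) had 8.39 and 10.9, with RAB11FIP4 11863 bp away. The alanine gene TRA-AGC13-2 (chr6:57838350-57838422) had 6.62 and 7.71 and lies 191500 bp from PRIM2, a primase subunit gene, in a small cluster on chromosome 6 apart from the big one. At each of these 3 genes both summits fell to the side of the gene, between 184 and 381 bp away. The aspartate gene TRD-GTC1-1 followed with 5.98 and 8.63, 11999 bp from TMPO, and the arginine gene TRR-CCG2-1 with 5.18 and 9.27, 15766 bp from KPNA2. An end of a long noncoding RNA gene lies 281 bp from TRD-GTC1-1. The asparagine gene TRN-GTT2-4 had 5.19 and 6.10, 13198 bp from USPL1, and the proline gene TRP-TGG3-3 had 4.97 and 6.99, 16118 bp from ZNF213.

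Other strong sites lay near the end of a protein-coding gene. The glutamine gene TRQ-CTG1-4 (chr15:65869062-65869133) had fold enrichments of 7.29 and 12.1 and lies 358 bp from RAB11A, a GTPase of recycling endosomes. The arginine gene TRR-ACG1-3 had 8.19 and 8.42, 325 bp from PRMT5, a protein arginine methyltransferase, and the glycine gene TRG-CCC2-1 had 5.71 and 7.63, 198 bp from TIA1, an RNA-binding protein of stress granules. The leucine gene TRL-AAG2-4 (chr16:22297140-22297221) had 5.41 and 7.36 and lies 188 bp from POLR3E, itself a subunit of RNA polymerase III. Its 2 summits were 311 and 266 bp from the tRNA gene and 123 and 78 bp from the POLR3E end. The summits of TRR-ACG1-3 and TRG-CCC2-1 were likewise nearer to the coding gene end, at 36 and 75 bp and at 249 and 280 bp from it, whereas those of TRQ-CTG1-4 were nearer to the tRNA gene, at 142 and 156 bp. TRR-ACG2-1, whose letters are given above, had 5.07 and 9.01, with summits 95 and 121 bp from the end of SACM1L and 420 and 446 bp from the tRNA gene. The threonine gene TRT-AGT1-3 had 6.80 and 7.40, 1258 bp from WDR88. The alanine gene TRA-AGC8-1 had 5.69 and 6.89 and lies inside AGBL5, 850 bp from an end of that gene.

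The share of occupied tRNA genes was lower in each successive class of distance from protein-coding genes. Up to 1 kb from a coding gene end 29 of 55 tRNA genes were occupied, or 52.7% (interval 38.8 to 66.3). At 1 to 10 kb the count was 33 of 95 (34.7%), at 10 to 100 kb 47 of 217 (21.7%), and over 100 kb 3 of 62 (4.84%, interval 1.01 to 13.5). Moved spans up to 1 kb from a coding end met the rule in 15 of 164 cases, or 9.15% (interval 5.21 to 14.6), against 1.63% of all moved spans. Of the 29 occupied genes closest to a coding end, the summit was nearer to that end than to the tRNA gene in 10 in replicate 1, in 13 in replicate 2 and in 9 in both. Over 10 kb from coding ends the 50 occupied genes had median fold enrichments of 2.89 and 4.04, against 3.59 and 5.17 at the 62 nearer ones. Binding by the coding neighbour and binding at the tRNA gene cannot be told apart for the close group. An end of a long noncoding RNA gene within 1 kb went with a share of 31.6% (18 of 57 genes) against 25.3% (94 of 372) without one. Beyond 10 kb from coding genes the 2 shares were 18.2% and 17.9%.

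At a few loci both summits fell inside the promoter window of a neighbouring gene, and the letters there can be shown. Such RefSeq windows run from 250 bases before to 50 after a gene start. There were 10 of them, serving 11 tRNA genes. The 4 below are written 5′ to 3′ on the strand of the named gene, and capitals mark the stretch from 1 replicate's summit to the other's.
RAB11A: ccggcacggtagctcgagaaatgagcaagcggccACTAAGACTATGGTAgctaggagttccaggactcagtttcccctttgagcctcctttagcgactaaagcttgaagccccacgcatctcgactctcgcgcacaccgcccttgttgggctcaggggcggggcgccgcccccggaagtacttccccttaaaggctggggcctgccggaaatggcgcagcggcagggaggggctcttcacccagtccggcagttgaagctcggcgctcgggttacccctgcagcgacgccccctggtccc
NDUFS7: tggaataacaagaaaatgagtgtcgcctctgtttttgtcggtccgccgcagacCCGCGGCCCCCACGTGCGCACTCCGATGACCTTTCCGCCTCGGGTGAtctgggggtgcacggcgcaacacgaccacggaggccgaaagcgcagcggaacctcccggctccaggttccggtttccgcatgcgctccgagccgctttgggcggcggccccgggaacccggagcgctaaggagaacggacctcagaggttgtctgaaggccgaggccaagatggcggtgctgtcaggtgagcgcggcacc
HMGN4: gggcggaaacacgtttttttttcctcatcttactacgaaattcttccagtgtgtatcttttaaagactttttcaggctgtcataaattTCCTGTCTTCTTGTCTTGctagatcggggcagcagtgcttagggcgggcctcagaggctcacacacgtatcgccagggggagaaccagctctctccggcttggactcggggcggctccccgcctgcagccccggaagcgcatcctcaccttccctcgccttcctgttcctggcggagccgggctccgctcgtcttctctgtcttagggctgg
LINC01623: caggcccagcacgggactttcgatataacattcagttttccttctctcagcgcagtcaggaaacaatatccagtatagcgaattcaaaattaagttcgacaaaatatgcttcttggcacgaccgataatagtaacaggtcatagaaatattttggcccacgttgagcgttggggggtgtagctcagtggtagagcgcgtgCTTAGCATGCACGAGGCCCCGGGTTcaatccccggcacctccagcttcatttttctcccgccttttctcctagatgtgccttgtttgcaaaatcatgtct

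The RAB11A window (chr15:65869241-65869540, plus strand) shows the site shared with TRQ-CTG1-4, whose 2 summits were 15 letters apart counting both ends. The NDUFS7 window (chr19:1383657-1383956, plus strand), of a complex I subunit gene, served the phenylalanine gene TRF-GAA1-6 and the asparagine gene TRN-GTT2-6 with 1 pair of peaks, at 4.37 and 8.27. The HMGN4 window (chr6:26538116-26538415, plus strand), of a nucleosome-binding protein gene, took the summits of TRV-CAC1-6, the highest-ranked gene of the chromosome 6 cluster. The window of the noncoding gene LINC01623 (chr6:28863628-28863927, minus strand) holds all 72 letters of TRA-AGC2-2, and the capitals there lie inside the tRNA gene. None of the 10 windows held the interferon response element core (GAAA, any 2 bases, GAAA), which 3.57% of all 35116 windows held, searched on both strands. None held the ETS and IRF composite (GGAA, any 2 bases, GAAA) either, present in 2.82% of all windows. A count of 0 in only 10 windows allows 3, so neither absence can be told apart from these low shares. The B box core GTTCNANNC was in 2 of the 10 and in 7.48% of all windows, and its stricter form GTTCGANNC in 0 of the 10 and in 0.829%, the second form being contained in the first. Of those 2 windows, 1 is that of LINC01623, where the core is the B box of TRA-AGC2-2 itself. The choice of windows at tRNA genes thus set this count in part.

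The chromosome 6 cluster had the lower share of occupied genes and the lower fold enrichments. It held 144 genes between 26286526 and 28989083 bp on chromosome 6. IRF3 summits were present at 31 of them in replicate 1, at 33 in replicate 2 and at 23 in both, or 16.0% (interval 10.4 to 23.0). Of the 285 genes elsewhere 107, 114 and 89 had them, and the share in both was 31.2% (interval 25.9 to 37.0). The 2 intervals did not overlap, but they count neighbouring genes as independent, and the occupied genes rest on 20 and 82 pairs of peaks. Fold enrichment at the occupied genes had medians of 2.73 and 3.57 in the cluster against 3.26 and 5.09 elsewhere, and no gene of the cluster reached 5 in both replicates. The genes elsewhere include 120 in no cluster. The other clusters, defined below, had a share of 22.4% (interval 16.3 to 29.6), and this interval overlaps that of the chromosome 6 cluster. Their median fold enrichments were 2.98 and 4.14, and 1 of their 165 genes reached 5 in both replicates.

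The cluster also lies farther from coding genes than the rest, and within classes of distance the gap was less clear. Of its genes 87.5% lie over 10 kb from any protein-coding gene end, against 53.7% elsewhere. Over 10 kb away 16 of 126 cluster genes were occupied (12.7%, interval 7.44 to 19.8) and 34 of 153 elsewhere (22.2%, interval 15.9 to 29.6), and these intervals overlap. Within 10 kb the counts were 7 of 18 (38.9%) and 55 of 132 (41.7%). By finer class the cluster had 1 of 3 against 28 of 52 up to 1 kb, and 6 of 15 against 27 of 80 at 1 to 10 kb. At 10 to 100 kb it had 15 of 89 against 32 of 128, and beyond 100 kb 1 of 37 against 2 of 25. Its share was the higher at 1 to 10 kb only. Moved spans of the cluster met the rule in 10 of 960 cases (1.04%, interval 0.501 to 1.91), below the share at its tRNA genes.

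Within the cluster the peaks were low and mostly close to the gene. The valine gene TRV-CAC1-6 (chr6:26538054-26538126), 240 bp from HMGN4, had fold enrichments of 3.64 and 8.13. The serine gene TRS-AGA2-2 had 3.58 and 7.24, and the valine gene TRV-AAC1-5 had 2.42 and 5.997. In all 3 of these genes replicate 2 was the higher. Of the 23 occupied genes 15 had the summit up to 100 bp away in replicate 1 and 12 in replicate 2. At 3 genes both summits lay inside the gene, namely TRA-AGC2-2 with 2.55 and 2.87, TRQ-TTG3-3 (glutamine) with 2.77 and 4.94, and TRS-GCT5-1 (serine) with 2.56 and 2.07. The longest stretch without a summit in either replicate ran over 23 neighbouring genes and 449 kb, from TRA-AGC11-1 to TRI-TAT2-2, and 22 of these lie over 10 kb from a coding gene end.

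**Figure D4:**
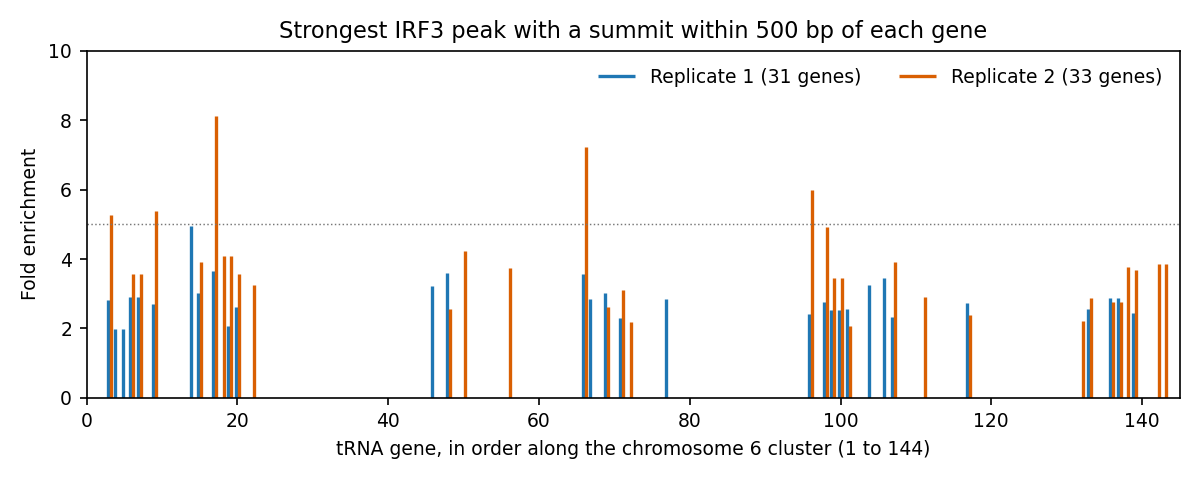
Fold enrichment (vertical axis) of the strongest peak within 500 bp of each of the 144 tRNA genes of the chromosome 6 cluster, in their order along the chromosome (horizontal axis), with 1 line per gene and replicate and a dotted line at 5. Genes without a line had no summit, including the run of 23 genes without any. Only replicate 2 lines rise above the dotted line, and the highest, 8.13, belongs to TRV-CAC1-6.

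Other clusters were defined as 5 or more tRNA genes with gaps of at most 500 kb. Together 37 of their 165 genes were occupied (22.4%, interval 16.3 to 29.6), and 52 of the 120 genes in no cluster were (43.3%, interval 34.3 to 52.7). Genes in no cluster also gave 13 of the 14 genes that reached a fold enrichment of 5 in both replicates. They lie a median of 7287.5 bp from a coding gene end, against 33719.5 bp in the chromosome 6 cluster. Over 10 kb from coding ends the shares were 31.4% of 51 genes in no cluster and 17.6% of 102 in other clusters.

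Single clusters ranged from none of their genes to 5 of 8. The gene said to lead a cluster or an isotype is the one whose poorer rank in the 2 lists was best. On chromosome 7 (149310190 to 149707740 bp) 0 of 19 genes had a summit in either replicate, which allows a share of up to 15.8% in both. Of these, 18 are cysteine genes and 1 is a serine gene. On chromosome 1 the clusters at 16520585, 145129239 and 148032790 bp had 0 of 8, 0 of 6 and 0 of 7 genes occupied, which allows up to 37.5%, 50% and 42.9%. The one at 146035692 bp had 3 of 5, led by TRE-CTC1-1 (glutamate) at 2.76 and 2.47, while TRK-CTT2-1 (lysine) there had 2.14 and a higher replicate 2 value of 7.58. The large one at 161399700 bp had 5 of 32, led by the valine gene TRV-CAC1-1 with 4.71 and 11.9.

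Higher shares were found in clusters on chromosomes 11 and 17. On chromosome 11 (59550629 to 59566452 bp) 5 of 8 genes were occupied, led by TRF-GAA2-1 (phenylalanine) at 3.79 and 7.33. On chromosome 17 (8119155 to 8227064 bp) 8 of 18 were, led by the proline gene TRP-CGG1-3 with 4.81 and 10.1. All 18 of those lie within 10 kb of a coding gene. The remaining clusters had 2 of 5 on chromosome 12 (led by TRD-GTC2-10, 3.03 and 4.14), 5 of 17 at the end of chromosome 5 (led by TRT-TGT6-1, 3.66 and 8.60), 4 of 14 on chromosome 16, 3 of 14 on chromosome 14 (led by TRY-GTA5-4, 3.26 and 4.19), and 1 of 6 each on chromosome 17 (38751781 to 39154562 bp) and in the second chromosome 6 cluster.

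Among the isotypes, the groups of tRNA genes that carry 1 amino acid, cysteine stood lowest. Of 29 cysteine genes 1 was occupied (3.45%, interval 0.0873 to 17.8). That gene was TRC-GCA2-2 on chromosome 17, with 3.14 and 3.39. With replicate 1 alone the count was 3 of 29 (10.3%), so the value depends on replicate 2. Over 10 kb from coding ends 0 of 22 cysteine genes had a summit in either replicate, against 17.9% of all such tRNA genes in both, and within 10 kb 1 of 7 was occupied, against 41.3%. Of the 29 genes, 18 lie in the single chromosome 7 cluster, so isotype and that cluster cannot be told apart for them. Alanine had 6 of 37 genes occupied (16.2%, interval 6.19 to 32.0), with 2 of 27 in the chromosome 6 cluster and 4 of 10 outside it. Replicate 2 alone gave 10 of 37 alanine genes (27.0%).

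Serine, arginine and valine had the highest shares among isotypes of 20 or more genes. Serine genes were occupied in 11 of 26 cases (42.3%, interval 23.4 to 63.1), arginine genes in 10 of 26 (38.5%, interval 20.2 to 59.4) and valine genes in 11 of 30 (36.7%, interval 19.9 to 56.1). These intervals overlap with each other, with alanine and with the share of all tRNA genes, so their order was not resolved at these numbers. The cysteine interval lies below those of serine, arginine and valine, all of them counts taken without a test. Arginine again split by location, with 1 of 11 in the chromosome 6 cluster and 9 of 15 elsewhere. Serine had 6 of 17 and 5 of 9. The 4 arginine genes that reached 5 in both replicates have been described above.

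Of the 8 initiator methionine genes, which start every cytosolic protein, 4 were occupied. TRX-CAT1-1, 257 bp from ILF2, had 4.94 and 8.20, with summits 37 and 77 bp from the ILF2 end and 294 and 334 bp from the tRNA gene. The other occupied copies were weaker, with 3.15 and 2.83 at TRX-CAT1-8, 2.91 and 3.57 at TRX-CAT1-3, and 2.54 and 3.45 at TRX-CAT1-7. TRX-CAT1-3 shared its peaks with a neighbouring serine gene, and TRX-CAT1-7 with a neighbouring glycine gene. The remaining 4 (TRX-CAT1-2, TRX-CAT1-4, TRX-CAT1-5 and TRX-CAT1-6), all in the chromosome 6 cluster, had no summit. Of the 2 genes for selenocysteine tRNA, TRU-TCA1-1 had 2.51 and 3.89 and TRU-TCA2-1 none. Of 7 leucine CAA genes, a group known for genes with an intron, TRL-CAA4-1 (3.59 and 3.50) and TRL-CAA1-2 (2.87 and 2.77) were occupied and TRL-CAA6-1 had a summit in replicate 1 only, at 2.83. TRL-CAA4-1 shared its peaks with a neighbouring glutamate gene, and its summits lay 231 and 118 bp away. TRL-CAA1-2 shared its peaks with a neighbouring glutamine gene, and its summits lay 409 and 415 bp away. TRL-CAA1-1, TRL-CAA2-1, TRL-CAA3-1 and TRL-CAA5-1 had none.

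The leading genes of the other isotypes ranged widely in strength. Methionine was led by TRM-CAT6-1 with 4.24 and 10.9, phenylalanine by TRF-GAA1-5 with 4.82 and 9.42, and tyrosine by TRY-GTA5-1 with 4.20 and 5.66. Serine was led by TRS-CGA1-1 with 4.11 and 5.57, and glutamate by TRE-TTC2-1 with 4.33 and 4.35. The lowest leaders were those of lysine, TRK-CTT1-2 with 2.78 and 2.79, and of tryptophan, TRW-CCA2-1 with 2.55 and 2.88, apart from selenocysteine with its 2 genes.

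**Figure D5:**
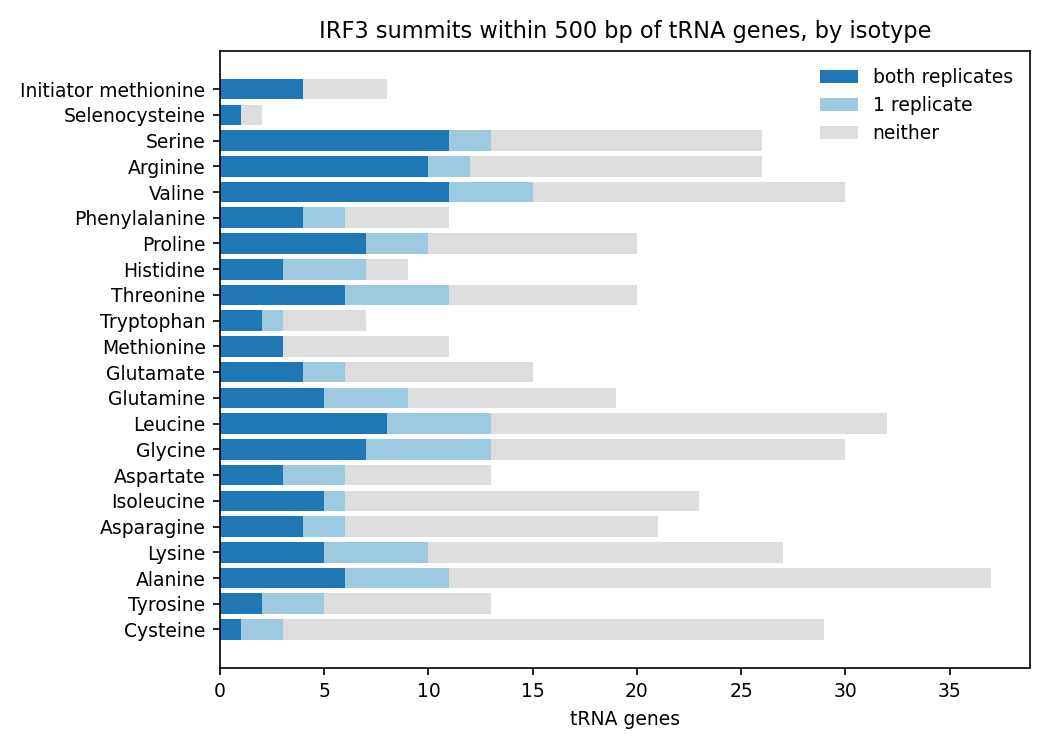
Number of tRNA genes (horizontal axis) of each isotype with an IRF3 summit within 500 bp in both replicates, in 1 replicate or in neither, ordered from the highest to the lowest share in both. Cysteine, at the bottom, has 1 of 29 genes in both replicates, and initiator methionine 4 of 8.

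Copies of the same tRNA differed in occupancy. Genes sharing a family number in their symbol are named for the same mature sequence. Of the 20 families with 5 or more copies, 18 had some copies occupied and others not, 2 had none and 0 had all. The family TRD-GTC2 (aspartate) had 2 of 11 copies occupied, TRH-GTG1 (histidine) 3 of 9, TRN-GTT2 (asparagine) 3 of 8 and TRL-CAG1 (leucine) 0 of 7. Families of 5 or more copies were occupied in 43 of 129 genes (33.3%) and single-copy families in 42 of 207 (20.3%). Over 10 kb from a coding gene end lie 74 of these 129 genes and 146 of these 207, and copy number and distance were not separated. The 207 include 8 genes without a family number, each counted as a family of its own, and 0 of these 8 were occupied.

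Occupancy was lower among genes of high family number. The nomenclature numbers the families of an anticodon from the best-scoring tRNA sequence downward. Genes numbered 1 were occupied in 41 of 116 cases (35.3%), those numbered 2 in 37 of 104 (35.6%), those numbered 3 to 5 in 29 of 126 (23.0%) and those above 5 in 5 of 75 (6.67%, interval 2.20 to 14.9). Of these last 75 genes, 64 lie over 10 kb from a coding gene end, against 68 of the 116 numbered 1. Most of the 29 cysteine genes and many of the alanine genes are numbered above 5. Of the 29 cysteine genes, 18 lie in the chromosome 7 cluster, where 0 of 19 genes were occupied. Family number, isotype and location were therefore not separated.

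Some genes had a strong peak in 1 replicate only, which marks the limits of the call. In replicate 1 alone the strongest were TRT-TGT5-1 at 7.08, TRL-CAG1-7 at 4.95 and TRA-TGC3-2 at 4.89. In replicate 2 alone they were TRN-GTT2-5 at 11.7, TRH-GTG1-9 at 10.2 and TRQ-TTG1-1 at 8.27. TRH-GTG1-9 shared its replicate 2 peak with the neighbouring copy TRH-GTG1-8, which was occupied at 3.85 and 10.2. A summit outside 500 bp counts as absent under this rule even where a peak overlaps the gene.

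Other short RNA genes of the RNA polymerase III pathway had strong peaks at several members. Of 20 short RNA genes transcribed by the same polymerase 14 were occupied (70%, interval 45.7 to 88.1), with median fold enrichments of 3.98 and 6.98. By the same rule 5.18% of 3284 small nuclear, small nucleolar, micro and ribosomal RNA genes were occupied, and 24.8% of the small nuclear RNA genes among them. RN7SL1, the RNA of the signal recognition particle, had 8.49 and 16.7. RPPH1, the RNase P RNA that trims the 5′ end of tRNA precursors, had 6.65 and 5.08, and RN7SK, which holds back a transcription elongation kinase, had 3.83 and 3.90. VTRNA1-2, VTRNA1-3, BCYRN1 and RNU6-7 had no summit in either replicate, and RNY4 and RNU6-8 had one in replicate 2 only.

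Protein genes of the pathway were occupied at nearly every member, by the rule that a summit lies within 500 bp of either gene end, which 44.9% of all 19866 protein-coding genes met. Of 18 subunits of the polymerase 16 were, including CRCP with 9.27 and 16.4 and POLR2L with 9.29 and 20.2, while POLR3G had no summit and POLR2H had one in replicate 1 only. Of 17 initiation and regulation genes 16 were, including all 6 TFIIIC genes GTF3C1 to GTF3C6, of which GTF3C5 had 6.78 and 11.4. BRF1, a TFIIIB subunit gene, was the exception. Of 20 tRNA maturation genes 19 were, among them TRNT1, which adds the CCA end, with 12.9 and 10.9, and XPOT, the tRNA exporter, with 7.71 and 15.8.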

How the data were processed

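IRF3 ChIP-seq was analysed from 2 deposited peak lists, 1 per ChIP library. The 2 inputs were used by the authors as background for peak calling and were not analysed themselves. Per the file headers, the authors called peaks with MACS2 2.1.2 for each ChIP library against an input library, at a q-value cutoff of 0.05 and with modelled fragments of 267 and 251 bp. The submitters' processing notes name GRCh38, MACS2 2.1.1, SAMtools 1.2, BWA 0.7.15 and deepTools 3.3.1, among others. The deposited fold enrichment is a ratio, the deposited pileup a signal, and the deposited −log10 q sits under a damaged column name. All are the authors' own values per peak.

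Genes came from a RefSeq table of GRCh38.p14, which gives spans without strand. The strongest peak with its summit within 500 bp gave the values of a gene. Shares carry exact Clopper-Pearson intervals at the 95% level, computed with scipy 1.17.1, pandas 2.3.3 and numpy 2.4.6 under Python 3.11.15, and cover counting error only. A count of 0 is read as allowing 3. Moved spans within 1 kb of a tRNA gene were left out. The counting was checked on simulated data.

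Named genes were the 15 best-ranked distinct peak pairs, the 5 best over 10 kb from coding ends, the strongest gene of each cluster and isotype, the initiator methionine, selenocysteine and leucine CAA genes, and the 3 strongest in each replicate alone. A few others were named after their values were seen. The members and lists were chosen with earlier results of these data known. Sequences came from the RefSeq promoter table, in which 0 of the tRNA genes had an entry of their own. A search by the A box was planned and not run. A result on 1 gene of the RNA polymerase III lists is not reported here.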

Additional observations from a re-analysis of the deposited data

How the results depend on the processing

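The share of occupied tRNA genes rested most on the strength asked of a peak. With a fold enrichment of at least 5 in both replicates it was 3.26% of all tRNA genes, 0% in the chromosome 6 cluster, 4.91% outside it, 2.15% over 10 kb from coding gene ends and 5.33% within 10 kb. With a −log10 q of at least 10 those shares were 13.1%, 3.47%, 17.9%, 6.09% and 26%. These 2 thresholds set the median fold enrichment to 6.30 and 4.21 in replicate 1 and to 8.52 and 7.28 in replicate 2, by construction. Within 250 bp the share was 16.8% of all tRNA genes, 18.9% outside the cluster and 10.04% over 10 kb away, and within 1000 bp it was 63.3% within 10 kb of coding ends. Moved spans gave 0.764% at 250 bp, 3.32% at 1000 bp and 0.498% at a fold enrichment of 5, and the 4 lists of RNA polymerase III genes together gave 56% at that fold, against 86.7% as reported.

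A single peak list used alone gave 32.2% to 34.3% of all tRNA genes, 21.5% to 22.9% in the cluster, 37.5% to 40% outside it, 21.9% to 24.0% over 10 kb away, 51.3% to 53.3% within 10 kb, 2.39% to 2.42% of moved spans and 88% to 89.3% of the listed genes. The median fold enrichments of the lists alone were 2.95 and 4.08. The chromosome 6 cluster had a lower share than all tRNA genes outside it under all 10 settings compared. These included 1 gene per family (18.4% against 39.3%). They also included, chosen after seeing the data, the setting without genes up to 1 kb from a coding end (15.6% against 26.2%). In the setting of 1 gene per family, a family counted as occupied when any copy was. By construction this raises the share where families hold more copies. The cluster had 144 genes in 114 families, and the other 285 genes formed 173. No paired analysis was possible because no test over samples was run and the inputs served only as background for the peak calls. The number of genes per group, 2 to 37 for isotypes, limits the precision of those shares.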
